A study of Mus musculus with 24 samples.

Results

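The 10 genes described here encode products that Paneth cells make or carry: the lysozymes *Lyz1* and *Lyz2*, the alpha-defensins *Defa17*, *Defa21*, *Defa22* and *Defa24*, the protease *Mmp7*, the ribonuclease *Ang4*, the lectin *Itln1* and the stress-induced *Nupr1*. They were chosen by name and not by a rule on measured values, but with earlier results of these data known, from the 53465 genes of the count table. Of these, 15044 genes passed the filter on low counts and were tested, among them all 10 members. The table held 45 alpha-defensin genes and pseudogenes, and 4 of them were members.

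The samples were 24 RNA libraries from mice of the Guca2a-Venus strain, in which the guanylin promoter drives the yellow fluorescent protein Venus. Epithelial cells were sorted by fluorescence into Venus-positive and Venus-negative cells from 4 regions, giving 8 groups of 3 libraries each. The duodenum, jejunum and ileum were short pieces from the upper end, the middle and the lower end of the small intestine, and the colon sample included the rectum. No group received a treatment, and positive and negative cells carried the same transgene. In this line, a bacterial artificial chromosome carries Venus where the *Guca2a* coding sequence would be, the mice descend from a single founder of C57Bl6J/CBA background that was backcrossed to C57Bl6J to a varying degree, and dead cells, debris and CD45-positive immune cells were removed in the sort. The age of the mice is not given in the sources used here. The study's text gives 3 mice for each region, and sorts and regions may come from the same animals. The labels do not say which mouse gave which library, so cells of 1 mouse could not be paired, and the SEs and p-values treat the 24 libraries as independent and measure the spread between libraries.

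Paneth cells sit at the base of the crypts of the small intestine, next to the stem cells, and release granules of antimicrobial proteins into the crypt lumen. Lysozyme cuts the peptidoglycan of bacterial walls, and alpha-defensins, called cryptdins in mice, are small cationic peptides that damage bacterial membranes. Mouse alpha-defensins are made as inactive precursors that MMP7 cleaves in the granule. The healthy mouse colon lacks typical Paneth cells, and goblet cells, which secrete mucus, share some of these products. In bulk RNA, fewer cells of a type and less RNA per cell cannot be told apart.

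The alpha-defensin genes are close copies of each other, and the members fall into 2 pairs by sequence. The coding part of exon 2, which holds the mature peptide, is shown for the 4 genes from the GENCODE M21 transcripts of GRCm38, plus strand, with the 43 of 107 positions at which the genes are not all the same in capitals. These stretches lie at chr8:21656532-21656638 for *Defa17*, chr8:21735268-21735374 for *Defa24*, chr8:21026314-21026420 for *Defa21* and chr8:21163046-21163152 for *Defa22*. They are shown because the pairs also differed in level along the intestine.
Defa17: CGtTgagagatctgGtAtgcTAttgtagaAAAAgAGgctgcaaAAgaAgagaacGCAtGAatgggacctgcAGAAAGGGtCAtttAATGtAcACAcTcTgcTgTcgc
Defa24: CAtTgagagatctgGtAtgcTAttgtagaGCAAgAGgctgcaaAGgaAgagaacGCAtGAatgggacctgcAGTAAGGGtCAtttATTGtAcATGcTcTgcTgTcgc
Defa21: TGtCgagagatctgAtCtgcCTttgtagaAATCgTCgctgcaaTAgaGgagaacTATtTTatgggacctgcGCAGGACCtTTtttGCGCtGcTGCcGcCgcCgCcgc
Defa22: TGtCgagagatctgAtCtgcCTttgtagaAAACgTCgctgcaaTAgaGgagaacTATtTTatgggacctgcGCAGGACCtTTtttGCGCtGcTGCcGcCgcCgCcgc

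Over whole transcripts, *Defa21* and *Defa22* were 99.3% identical and *Defa17* and *Defa24* were 90.5% identical. Identity across the pairs ranged from 78.2% for *Defa17* and *Defa21* to 82.1% for *Defa24* and *Defa22*. The RefSeq promoter table (GRCm38.p6) held windows for 8 of the 10 members, and those of *Defa21* and *Defa22* were identical at 250 of the 250 bases before the start. They are shown because these genes had the same pattern along the intestine, at chr8:21025295-21025544 for *Defa21* and chr8:21162027-21162276 for *Defa22*, plus strand, with matches to TATAAA and to ATCAAAG, searched on both strands, in capitals.
Defa21: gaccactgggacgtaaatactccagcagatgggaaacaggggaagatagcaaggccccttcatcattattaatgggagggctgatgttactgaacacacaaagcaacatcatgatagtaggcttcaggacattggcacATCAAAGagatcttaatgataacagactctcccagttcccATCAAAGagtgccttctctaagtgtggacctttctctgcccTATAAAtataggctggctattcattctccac
Defa22: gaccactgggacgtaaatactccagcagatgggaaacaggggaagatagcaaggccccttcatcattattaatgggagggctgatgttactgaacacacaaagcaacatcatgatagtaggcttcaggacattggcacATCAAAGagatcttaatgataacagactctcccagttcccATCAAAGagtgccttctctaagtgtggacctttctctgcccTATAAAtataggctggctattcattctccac

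TATAAA, the letters of a TATA box, began 31 bases before the start of both genes. ATCAAAG, a sequence bound by TCF factors, began 112 and 72 bases before it. TATAAA was found in 12.4% and ATCAAAG in 3.21% of all 32851 windows of this length. Of the other members with a window, *Mmp7* had TATAAA in the window of one start and ATCAAAG in that of another, and *Lyz1*, *Lyz2*, *Ang4*, *Itln1* and *Nupr1* had none.

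The lysozymes are a second pair of neighbouring copies, on the minus strand of chromosome 10. *Lyz1* is the lysozyme of Paneth cells, and *Lyz2* is best known from macrophages and other myeloid cells. The coding part of exon 2 is shown at chr10:117291029-117291193 for *Lyz1* and chr10:117280641-117280805 for *Lyz2* (GRCm38), with the 6 of 165 positions that differ in capitals, because reads must cover such positions to be assigned to 1 gene.
Lyz1: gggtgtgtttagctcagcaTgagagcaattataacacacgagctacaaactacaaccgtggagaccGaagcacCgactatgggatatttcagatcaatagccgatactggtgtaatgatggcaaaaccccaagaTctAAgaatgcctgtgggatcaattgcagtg
Lyz2: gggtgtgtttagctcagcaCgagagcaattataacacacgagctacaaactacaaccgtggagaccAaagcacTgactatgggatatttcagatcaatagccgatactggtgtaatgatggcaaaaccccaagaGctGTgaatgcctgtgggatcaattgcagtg

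The whole genes lie on GRCm38 at chr8:21655780-21656735 (*Defa17*), chr8:21025545-21026516 (*Defa21*), chr8:21162277-21163249 (*Defa22*), chr8:21734494-21735471 (*Defa24*), chr10:117287797-117292868 (*Lyz1*) and chr10:117277331-117282321 (*Lyz2*). *Mmp7* lies at chr9:7692090-7699585, *Ang4* at chr14:51763878-51773590, *Itln1* at chr1:171518122-171535294 and *Nupr1* at chr7:126623249-126630861. The share of a transcript that occurs in no other annotated gene sets how many 50-base reads could be counted on it, since reads that map to several places were not counted. Of the 348 windows of 50 bases in *Defa17*, 28 (8.05%) were its own, and 320 were shared with *Defa3*. *Defa21* and *Defa22* had 27.1% and 25.1% unique windows and shared 269 windows with each other. *Defa24* had 71.9%, *Lyz1* 83.9% and *Lyz2* 84.6%, with 195 windows shared between the lysozymes. *Mmp7* had 92.6%, *Ang4* 95.3%, *Itln1* 99% and *Nupr1* 99.3%, and *Mmp7* overlaps *AV064505* on the other strand. Counts of *Defa17*, *Defa21* and *Defa22* therefore understate these genes relative to *Defa24*, and their levels cannot be compared between genes without that correction. Comparing 1 gene with itself across libraries does not need it, but assumes that the libraries carry the same alleles. The mice were a mixture of strains to a varying degree, the alpha-defensin cluster is known to differ between mouse strains, and the counts rest on a single reference genome, so that values of single *Defa* genes carry a limit that was not tested.

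**Figure D1:**
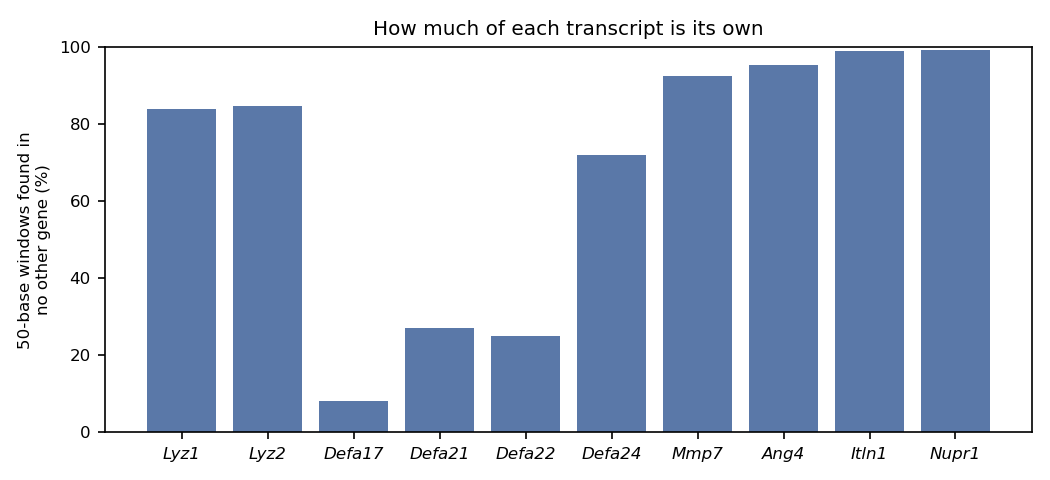
Bars give, for each member, the percentage of the 50-base windows of its annotated transcripts that occur in no other annotated gene. *Defa17* (8.05%), *Defa22* (25.1%) and *Defa21* (27.1%) stand far below the other members, which lie between 71.9% and 99.3%.

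Genes received between 7458616 and 23063124 counts in each library, so that 3 counts, taken as the floor of detection, were 0.106 to 0.359 normalised CPM. Levels are CPM scaled by edgeR's TMM factors, given as the values of the 3 libraries of a group or as mean ± SD (n = 3). The mitochondrial share of counts was 32.3% to 46.6% in positive and 64.6% to 76.4% in negative libraries of the duodenum, 47.1% to 60.6% and 61.2% to 78.8% in the jejunum, 41.0% to 55.4% and 64.7% to 70.9% in the ileum, and 68.6% to 77.9% and 65.3% to 80.7% in the colon, where the sorts overlapped. Reads that mapped to several places made up 28.4% to 31.8% of the reads in positive and 19.6% to 24.3% in negative cells of the duodenum, and the part of either share in the differences below was not tested.

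Paneth cell products were far more abundant in Venus-positive cells of all small-intestinal regions. In the duodenum, 10 of 10 members were higher in positive cells, with log2 fold changes from 5.83 for *Lyz2* to 6.78 for *Itln1* and edgeR adjusted p of at most 0.00082, where 8.88% of all genes tested were higher. As single libraries were left out, the changes of the 9 members other than *Lyz2* ran from 5.33 (*Mmp7*) to 7.64 (*Defa17*), each of them highest without the second duodenal negative library. In the jejunum 9 of 10 were higher (18.3% of all genes), with a median of 3.78 over the members, and in the ileum 10 of 10 (17.9% of all genes), with a median of 4.40. The 8 members other than *Lyz2* and *Nupr1* changed by 3.13 (*Mmp7*) to 4.00 (*Itln1*) in the jejunum and by 3.93 (*Mmp7*) to 4.64 (*Defa17*) in the ileum. The jejunal sizes leaned on the third positive library, the highest of its group for these members, without which they were 2.06 (*Itln1*) to 3.04 (*Ang4*), all still called. Over all genes tested the medians were -0.16, -0.28 and -0.27 in these regions. In the colon only *Nupr1* was called (9.31% of all genes were higher). Positive and negative libraries did not overlap for any member in the duodenum and ileum, and for 8 of 10 in the jejunum, the exceptions being *Lyz2* and *Nupr1*. Of all genes tested, 16.2%, 23.2% and 22.6% had all positive libraries above all negative ones in the duodenum, ileum and jejunum.

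**Figure D2:**
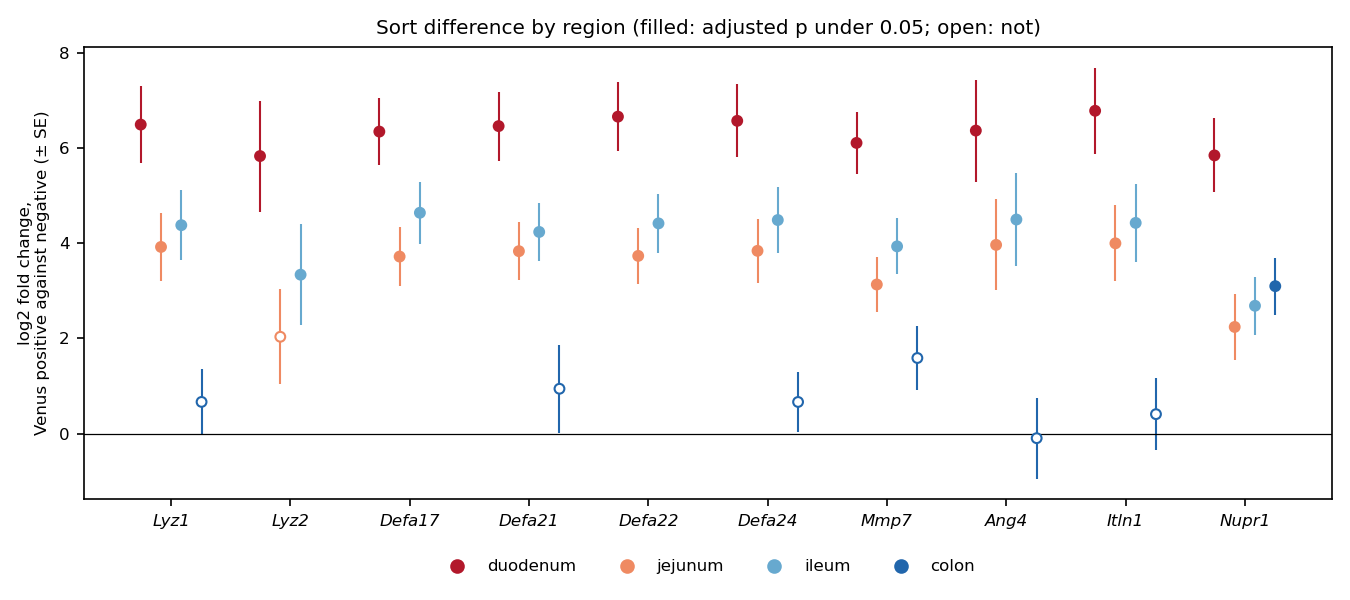
Points give the log2 fold change between Venus-positive and Venus-negative cells for each member and region, bars the standard error, and filled points an edgeR adjusted p under 0.05. The changes of the 10 members lie between 5.83 and 6.78 in the duodenum, and in the colon all but that of *Nupr1* (3.10) are open. *Lyz2*, *Defa17* and *Defa22* are not drawn for the colon, where at least 1 sort had at most 3 counts per library.

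*Lyz1* held 9642, 16150 and 5524 CPM in the positive libraries of the duodenum, against 60.6, 225 and 62.2 CPM in the negative ones. In the positive libraries of the jejunum it held 1016, 302 and 4262 CPM, and in those of the ileum 2099, 1015 and 2042 CPM. The lowest positive library of the duodenum lay above the highest of the other regions. Relative to their mean the jejunal libraries were the most spread (1860 ± 2111 CPM), although the SD itself was largest in the duodenum (5355 CPM). The duodenal positive cells exceeded those of the jejunum by a log2 fold change of 2.49 ± 0.68 (SE, adjusted p = 0.0053) and those of the ileum by 2.60 ± 0.68 (adjusted p = 0.0054). In negative cells its means were 116 ± 94.5, 123 ± 77.1 and 82.6 ± 17.0 CPM in the duodenum, jejunum and ileum, with overlapping libraries.

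*Lyz2* was scarce beside its neighbour. It held 10.8, 29.0 and 8.99 CPM in the positive libraries of the duodenum and at most 6.19 CPM in any other library. Its share of the counts on both lysozymes was 0.11% to 0.18% in the duodenal positive libraries, 0.074% to 0.21% in the jejunal and 0.15% to 0.21% in the ileal ones. In negative libraries the share was 0% to 1.37%, 0.080% to 1.60% and 0.085% to 0.82%, with at most 16 *Lyz2* counts in each. The level of *Lyz2* was higher in positive than in negative cells of the duodenum (5.83 ± 1.17, adjusted p = 0.00082) and ileum (3.34 ± 1.06, adjusted p = 0.013), and the jejunal change of 2.04 ± 1.0 missed the threshold (adjusted p = 0.098). The jejunal change was 0.75 without the third positive library, and it was called without the second (2.69, adjusted p = 0.028), with library size alone (adjusted p = 0.047) and without a filter on low counts (adjusted p = 0.0063). The duodenal negative libraries had 12, 0 and 0 counts of it, so that the size of that change rests on 1 library, and without it the fitted value, against libraries at 0 counts, was 10.9. It was 5.10 without the second duodenal positive library. The ileal call was lost without either of 2 negative libraries, with adjusted p of 0.059 and 0.062. Of 9 macrophage markers, *Adgre1* had no count in any library, and the summed level of the list was 0.66 to 2.25 CPM in positive and 1.82 to 7.85 CPM in negative cells of the duodenum. The parts of myeloid cells and of wrongly assigned *Lyz1* reads in the *Lyz2* counts were not tested.

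The alpha-defensins together took 4.24%, 5.19% and 2.07% of all counts on genes in the positive libraries of the duodenum. They took 0.155% to 1.40% in positive libraries of the jejunum, 0.426% to 1.26% in those of the ileum and at most 0.0695% in any negative library of these regions. *Defa24* made up most of these counts, between 53.4% and 62.7% of alpha-defensin counts in every library of all 4 regions. Colonic libraries held only 95 to 492 alpha-defensin counts each. The level of *Defa24* was 22490, 26030 and 9773 CPM in duodenal positive libraries, 3744, 990 and 8526 CPM in jejunal ones and 5833, 2264 and 3259 CPM in ileal ones. The duodenal libraries lay above all the others, with a log2 fold change of 2.14 ± 0.63 against the jejunum (adjusted p = 0.0092) and 2.36 ± 0.63 against the ileum (adjusted p = 0.0065). Without the lowest jejunal library the former was 1.69 (adjusted p = 0.054). *Defa17* had the same order, at 641, 1102 and 348 CPM in the duodenum, 27.0 to 192 CPM in the jejunum and 71.9 to 147 CPM in the ileum, and its changes were 2.71 ± 0.59 (adjusted p = 0.00062) and 2.81 ± 0.59 (adjusted p = 0.00068).

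*Defa21* and *Defa22* ran the other way along the small intestine. *Defa21* held 71.4, 110 and 60.5 CPM in positive libraries of the duodenum, 152, 43.2 and 561 CPM in those of the jejunum and 588, 227 and 339 CPM in those of the ileum. Duodenum and ileum did not overlap, whereas the jejunal libraries overlapped both. *Defa22* held 74.4, 78.5 and 50.1 CPM in the duodenum, 91.8, 31.7 and 396 CPM in the jejunum and 440, 166 and 285 CPM in the ileum. In positive cells the duodenum was lower than the ileum by a log2 fold change of -2.25 ± 0.57 for *Defa21* (adjusted p = 0.0038) and -2.13 ± 0.55 for *Defa22* (adjusted p = 0.0050). Against the jejunum, *Defa21* was called lower (-1.64 ± 0.56, adjusted p = 0.023) and *Defa22* was not (-1.35 ± 0.54, adjusted p = 0.054), although it was without any of 7 libraries, with adjusted p down to 0.0059. That jejunal difference rested on 1 library: without the jejunal positive library of the highest level the changes were -0.28 (adjusted p = 0.70) and 0.13. The *Defa21* call was also lost without either of 2 duodenal positive libraries, with adjusted p of 0.069 and 0.082.

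In negative cells *Defa21* and *Defa22* were the only members called between small-intestinal regions. *Defa21* held 0.49, 1.56 and 0.65 CPM in negative libraries of the duodenum, 17.7, 11.6 and 23.7 CPM in those of the jejunum and 32.8, 15.4 and 13.0 CPM in those of the ileum. The duodenal libraries stood below all others, and *Defa22* had the same order, at 0.35 to 0.97, 7.52 to 23.6 and 8.88 to 21.9 CPM. Duodenal levels were lower than jejunal ones by -4.27 ± 0.68 for *Defa21* (adjusted p = 0.00040) and -4.28 ± 0.69 for *Defa22* (adjusted p = 0.00046), where 0.419% of all genes were lower. Against the ileum they were lower by -4.48 ± 0.68 and -4.38 ± 0.69 (adjusted p = 4.84e-05 and 7.54e-05), where 1.7% of all genes were lower. The call of these 2 members did not depend on any single library in either comparison.

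**Figure D3:**
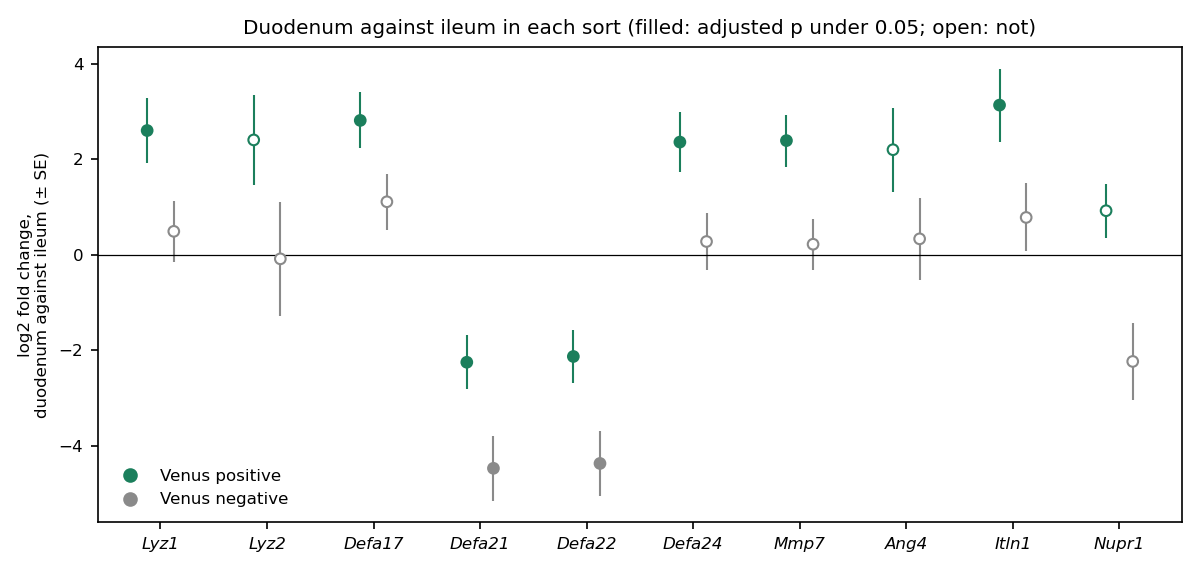
Points give the log2 fold change between duodenum and ileum for each member in Venus-positive and Venus-negative cells, bars the standard error, and filled points an edgeR adjusted p under 0.05. *Defa21* and *Defa22* lie below 0 in both sorts, at -2.25 and -2.13 in positive and -4.48 and -4.38 in negative cells, while the other members of positive cells lie above 0.

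Ratios within a library do not depend on its size, and are given as a description without a test. Per 100 counts of *Defa24*, *Defa21* had 0.318, 0.422 and 0.619 counts in positive and 0.322, 0.419 and 0.724 in negative libraries of the duodenum. In the jejunum it had 4.05, 4.36 and 6.57 in positive and 5.26, 6.64 and 5.69 in negative libraries. In the ileum it had 10.08, 10.04 and 10.41 in positive and 13.2, 12.8 and 9.46 in negative libraries. The 3 regions did not overlap, and within each region the positive and negative ranges lay side by side although the levels themselves differed by a log2 fold change of 3.83 to 6.46. *Defa22* followed the same order, from 0.230 to 0.724 in the duodenum through 2.33 to 5.67 in the jejunum to 7.32 to 8.78 in the ileum, over both sorts. *Defa17* was between 2.18 and 5.02 in all 18 small-intestinal libraries, with medians over both sorts of 3.59 in the duodenum, 2.71 in the jejunum and 2.44 in the ileum. Divided by the number of unique windows, *Defa21* was 0.84% to 1.93% of *Defa24* in the duodenum and 25.2% to 35.1% in the ileum, and *Defa17* was 20.7% to 47.7% over the small intestine.

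**Figure D4:**
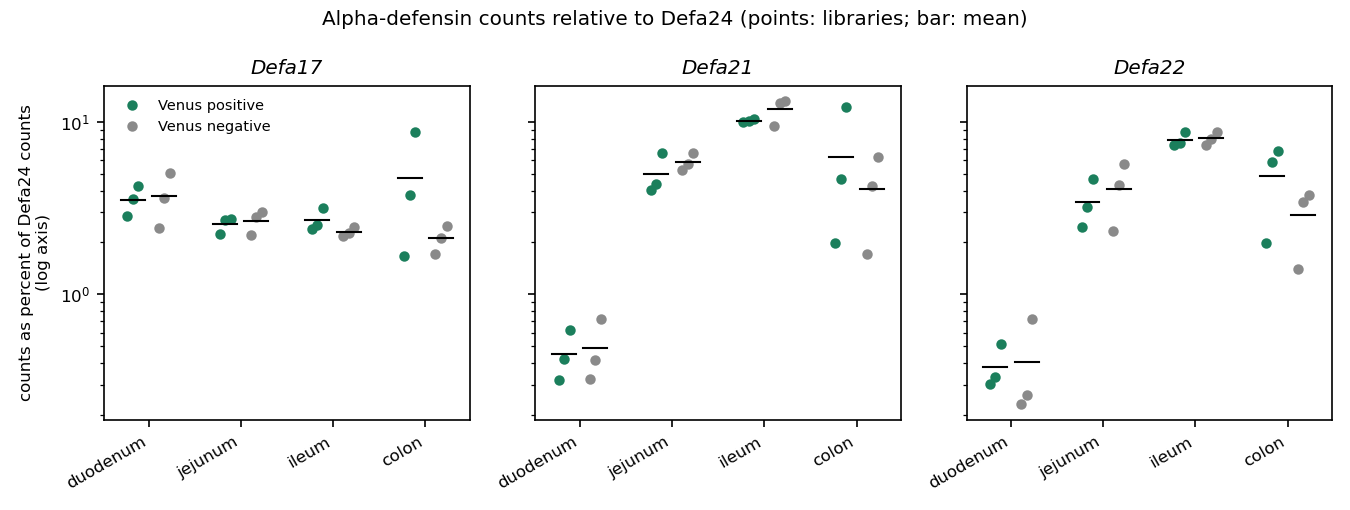
Points give the counts of *Defa17*, *Defa21* and *Defa22* as a percentage of the *Defa24* counts of the same library, on a log axis, and bars the mean of 3 libraries. *Defa17* lies between 2.18% and 5.02% over the small intestine, while *Defa21* goes from 0.318% to 0.724% in the duodenum to 9.46% to 13.2% in the ileum in both sorts.

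*Mmp7*, the protease that activates the alpha-defensins, was highest in the duodenum, as *Defa24* was and *Defa21* was not. It held 425, 1118 and 287 CPM in duodenal positive libraries, 60.2, 24.4 and 168 CPM in jejunal ones and 140, 97.8 and 111 CPM in ileal ones, with the duodenum above both other regions in every library. The duodenal level exceeded the jejunal one by a log2 fold change of 2.86 ± 0.55 (adjusted p = 0.00019) and the ileal one by 2.39 ± 0.54 (adjusted p = 0.0016). In negative cells *Mmp7* had means of 8.82 ± 7.40, 9.56 ± 2.87 and 7.61 ± 1.47 CPM in the 3 regions.

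*Itln1*, a lectin that binds microbial sugars and is made by Paneth and goblet cells, had the largest difference of the members between duodenum and ileum in positive cells. It held 4084, 7586 and 5673 CPM in duodenal positive libraries, 118 to 2190 CPM in jejunal and 320 to 937 CPM in ileal ones. The log2 fold change was 2.71 ± 0.75 against the jejunum (adjusted p = 0.0060) and 3.14 ± 0.76 against the ileum (adjusted p = 0.0030). *Ang4*, an antimicrobial ribonuclease of the angiogenin family, held 1040, 1952 and 820 CPM in duodenal positive libraries, 73.9 to 564 CPM in jejunal and 206 to 392 CPM in ileal ones. Its libraries did not overlap between duodenum and the other regions, yet with an SE of 0.88 the changes of 2.13 and 2.20 missed the threshold (adjusted p = 0.063 and 0.066). The former was called without any of 4 libraries, among them the third jejunal positive one (3.04, adjusted p = 0.020), and under 4 of the other alternatives, and the latter (2.19 to 2.26) without any of 5 libraries and under 3 of them.

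*Nupr1*, a small nuclear protein induced by cell stress, had a different pattern from the other members. In positive cells it held 18.6, 20.6 and 9.22 CPM in the duodenum and 3.70, 0.39 and 5.83 CPM in the jejunum. Ileal levels were 11, 8.35 and 6.25 CPM and colonic ones 73.6, 66.6 and 66.3 CPM. All colonic positive libraries lay above every library of the small intestine. Positive cells of the small intestine were lower than those of the colon by -3.16 ± 0.41 (adjusted p = 5.40e-07), and negative cells by -3.66 ± 0.48 (adjusted p = 1.44e-06). It was the member called between the sorts in the colon, at 68.8 ± 4.13 against 8.12 ± 4.89 CPM (3.10 ± 0.60, adjusted p = 0.00068), and it was also higher in positive cells of the duodenum (5.84 ± 0.78, adjusted p = 2.56e-06), jejunum (2.24 ± 0.69, adjusted p = 0.0091) and ileum (2.69 ± 0.61, adjusted p = 0.00089). The jejunal call was lost without the third positive library (1.55, adjusted p = 0.080) or the third negative library (1.76, adjusted p = 0.058), and under 1 of the other alternatives.

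In positive cells, then, 7 of 10 members were higher in the duodenum than in the jejunum, where 18.4% of all genes were, and 1 was lower, where 14.8% were. Between duodenum and ileum, 5 were higher (13.1% of all genes) and 2 were lower (12.5% of all genes). *Lyz2* was among those called against the jejunum (2.53 ± 0.95, adjusted p = 0.041), whose call was lost without any of 3 libraries, with adjusted p of 0.12 to 0.25. Against the ileum it was not called (2.41, adjusted p = 0.060), although it was without any of 5 libraries and under 4 of the other alternatives. Without the third jejunal positive library the changes against the jejunum were 3.98 for *Lyz1*, 3.81 for *Lyz2* and 4.64 for *Itln1*. *Nupr1* was also higher in duodenum than in jejunum (2.31 ± 0.60, adjusted p = 0.0034) but not called against the ileum (0.92 ± 0.56, adjusted p = 0.23). No member was called between jejunum and ileum in positive cells (5.15% of all genes in either direction), where 1 member had an unadjusted p under 0.05, or in negative cells (2.11%), where 0 did. DESeq2 called 0 in both.

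**Figure D5:**
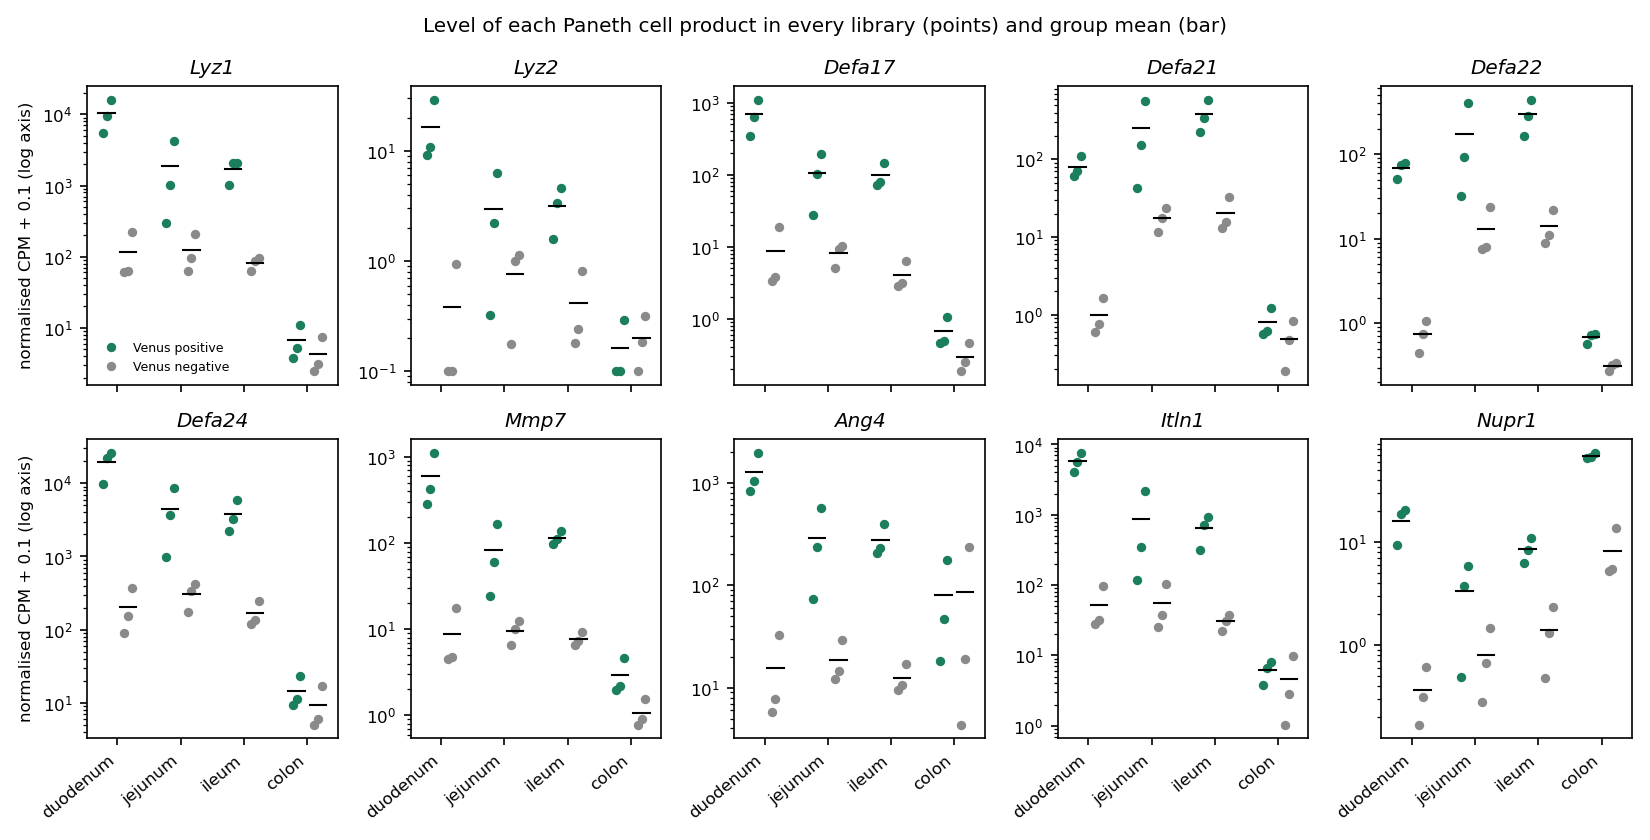
Each panel shows 1 member, with points for the 3 libraries of each region and sort as normalised CPM plus 0.1 on a log axis and bars for the group mean. *Defa21* and *Defa22* are lowest in the duodenum among small-intestinal regions, *Nupr1* is highest in positive cells of the colon (66.3 to 73.6 CPM), and the positive cells of the colon hold the lowest mean of the remaining members among positive groups.

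The difference between the sorts was itself compared between regions. Between duodenum and jejunum the members' log2 fold changes differed by 2.40 to 3.8, and 6 of 10 passed the interaction test (8.77% of all genes), all with the larger change in the duodenum, namely *Defa17* (2.63 ± 0.81, adjusted p = 0.027), *Defa21* (2.63 ± 0.85, adjusted p = 0.035), *Defa22* (2.93 ± 0.86, adjusted p = 0.020), *Defa24* (2.73 ± 0.87, adjusted p = 0.032), *Mmp7* (2.97 ± 0.76, adjusted p = 0.0083) and *Nupr1* (3.60 ± 1.06, adjusted p = 0.021). The call was lost without any of 7 libraries for *Defa17* and for *Defa21*, 8 for *Defa24*, 3 for *Defa22*, 2 for *Nupr1* and 1 for *Mmp7*, with adjusted p of up to 0.15. *Lyz1*, *Itln1*, *Lyz2* and *Ang4* did not pass (adjusted p = 0.059, 0.064, 0.080 and 0.20), although the first pair did without any of 4 libraries each. The value of *Lyz2*, the highest of the range, was 8.91 without the first duodenal negative library, against libraries at 0 counts. Against the ileum the difference was 1.71 to 3.16, and only *Nupr1* passed (3.16 ± 0.98, adjusted p = 0.035, 4.58% of all genes), a call that was lost without any of 7 libraries, with adjusted p of up to 0.13. In the same comparison *Defa17* (1.71, adjusted p = 0.19) was at 3.00 without the second duodenal negative library (adjusted p = 0.014), and *Lyz2* (2.49, adjusted p = 0.33) at 1.16 without the third ileal negative library and, against libraries at 0 counts, at 7.61 without the first duodenal negative one (adjusted p = 0.036). Between jejunum and ileum 0 of 10 passed, against 0.266% of all genes, and 0 had an unadjusted p under 0.05 or were called by DESeq2. As single libraries were left out, the first count ranged from 2 to 9 and the second from 0 to 4, and the second was 9 without a filter on low counts and 6 with library size alone. Without the third jejunal positive library the first difference was 4.0 for *Defa21* and 4.41 for *Defa22*, and *Lyz1*, *Itln1* and *Lyz2* passed as well (4.07, 4.72 and 5.08, adjusted p = 0.0012, 0.00054 and 0.019). The sum of all alpha-defensin genes, fitted as 1 feature, gave 2.72 ± 0.88 (adjusted p = 0.036) for the first comparison and 2.05 ± 0.88 (adjusted p = 0.14) for the second.

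In the colon the alpha-defensins and lysozymes had lower mean levels than in positive cells of any small-intestinal region, and *Lyz2*, *Defa17*, *Defa21* and *Defa22* had at most 16 counts per library. All alpha-defensin genes together had 95 to 492 counts per colonic library, against 2267 to 579364 in the small intestine. The labels give each library a pair of index sequences, and single indices were shared between libraries. The part of reads assigned to a wrong library in these low counts was not tested. *Defa24* held 23.2, 9.34 and 11.1 CPM in positive and 17.0, 5.86 and 4.93 CPM in negative colonic libraries, and *Lyz1* 11, 3.68 and 5.16 CPM and 7.43, 2.34 and 2.97 CPM. The sorts overlapped for both genes. *Defa17* and *Defa22* never exceeded 3 counts in a negative colonic library, nor *Lyz2* in either sort, so that no fold is given for them. *Mmp7* held 1.85, 2.12 and 4.52 CPM in positive and 1.44, 0.81 and 0.68 CPM in negative libraries, which did not overlap, and its change of 1.59 ± 0.67 was not called (adjusted p = 0.12). Of all genes tested, 19.1% had all positive libraries above all negative ones in the colon.

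Besides *Nupr1*, *Ang4* was an exception in the colon. It held 46.2, 177 and 18.1 CPM in positive and 18.8, 234 and 4.25 CPM in negative libraries, and the highest library of each sort stood well above the rest of its group. The sort change of -0.095 ± 0.85 (adjusted p = 0.97) became 2.77 (adjusted p = 0.038) without the negative library of 234 CPM. Negative cells of the small intestine were called lower than those of the colon for *Ang4* (-2.50 ± 0.64, adjusted p = 0.0066), and without that library the change was 0.31. In positive cells the small intestine was called higher (2.54 ± 0.82, adjusted p = 0.021), which was lost without either of the other colonic positive libraries (2.26, adjusted p = 0.0996, and 2.07, adjusted p = 0.12) and was 3.86 without the highest.

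Averaged over the 3 small-intestinal regions, positive cells had higher levels than those of the colon for 9 of 10 members (10.3% of all genes) and a lower level for *Nupr1* (15.9% of all genes). The log2 fold changes were 8.93 ± 0.89 for *Lyz1*, 8.89 ± 0.83 for *Defa24*, 8.12 ± 0.76 for *Defa21*, 8.37 ± 0.78 for *Defa17*, 8.0 ± 0.74 for *Defa22*, 7.96 ± 0.94 for *Itln1* and 5.99 ± 0.63 for *Mmp7*, with adjusted p of at most 1.02e-07. *Lyz2* was also called (adjusted p = 0.00044), and no fold is given since each colonic library had at most 3 counts of it. In negative cells 7 members were higher (6.53% of all genes) and *Ang4* and *Nupr1* were lower (5.74% of all genes). The former were *Lyz1* (4.66 ± 0.73), *Defa24* (4.59 ± 0.67), *Defa21* (4.22 ± 0.74), *Itln1* (3.30 ± 0.74), *Mmp7* (3.19 ± 0.60) and, with at most 3 counts in each colonic library and so without a fold, *Defa17* and *Defa22*, with adjusted p of at most 0.0019. *Lyz2* was not called (adjusted p = 0.44). The difference between the sorts was larger in the small intestine than in the colon for 6 members (1.38% of all genes): *Ang4* (5.04 ± 1.08), *Itln1* (4.66 ± 0.92), *Defa24* (4.30 ± 0.76), *Lyz1* (4.26 ± 0.84), *Defa21* (3.90 ± 1.14) and *Mmp7* (2.80 ± 0.78), with adjusted p of at most 0.047. It was not called for *Defa17*, *Defa22*, *Lyz2* and *Nupr1* (adjusted p = 0.21, 0.15, 0.23 and 0.74). Without the colonic negative library that was high in *Ang4*, 2 members passed the threshold, and the values of *Ang4* and *Itln1* were 2.23 (adjusted p = 0.15) and 3.44 (adjusted p = 0.053). The call of *Defa21* was lost without any of 14 libraries, with adjusted p of up to 0.27, and that of *Mmp7* without any of 4, with adjusted p of up to 0.16.

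Levels of different genes were set side by side as mean CPM per unique 50-base window, which allows for transcript length and for shared sequence. In duodenal positive cells *Defa24* led with 73.1 CPM per window, followed by *Defa17* (24.9), *Lyz1* (10.2), *Itln1* (5.16), *Ang4* (2.02), *Defa21* (0.81), *Defa22* (0.73), *Mmp7* (0.65), *Lyz2* (0.015) and *Nupr1* (0.0062). In ileal positive cells the order was *Defa24* (14.2), *Defa21* (3.85), *Defa17* (3.54), *Defa22* (3.19), *Lyz1* (1.69), *Itln1* (0.59), *Ang4* (0.44), *Mmp7* (0.12), *Nupr1* (0.0033) and *Lyz2* (0.0029). The place of *Defa17* rests on 28 windows, neighbours such as *Defa21*, *Defa17* and *Defa22* in the ileum lie within the spread of their libraries, and the order is a description without a test.

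The other alpha-defensin genes showed the sort difference of the members. Of the 41, 15 were tested, and the duodenal sort called 15 higher in positive cells, the jejunal 13 and the ileal 14, against 8.88%, 18.3% and 17.9% of all genes. *Defa27*, *Defa35* and *Gm15293* were at 0 counts in the duodenal negative libraries and had means of 5.26 ± 2.0, 1.82 ± 0.62 and 1.51 ± 0.85 CPM in the positive ones, so that the size of their change is not given. In positive cells 9 of 15 were called between duodenum and jejunum and 8 between duodenum and ileum, all of them higher in the duodenum, unlike *Defa21* and *Defa22*, where 18.4% and 13.1% of all genes were higher. *AY761184* (3.82 ± 0.68, adjusted p = 0.00011), *Defa-ps1* (3.33 ± 0.64, adjusted p = 0.00030) and *Gm14851* (3.10 ± 0.58, adjusted p = 0.00020) had the largest changes against the ileum.

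Other secreted products of Paneth cells were less uniform. Of 13 listed, 9 were tested, and the sort called 6 of them higher in positive cells for the duodenum, 4 for the jejunum, 8 for the ileum and 2 for the colon, against 8.88%, 18.3%, 17.9% and 9.31% of all genes. The duodenal changes were led by the phospholipase *Pla2g2a* (8.24, adjusted p = 5.04e-06), colipase *Clps* (6.33, adjusted p = 5.31e-05) and the pentraxin *Mptx2* (5.67, adjusted p = 1.20e-06). Between positive cells of duodenum and ileum 4 were higher and 3 were lower in the duodenum (13.1% and 12.5% of all genes). The lower ones were the C-type lectins *Reg3b* (-5.45, adjusted p = 1.68e-06), *Reg3g* (-4.14, adjusted p = 5.73e-05) and, named after its value was seen, *Reg3a* (-2.72, adjusted p = 0.00016), which enterocytes also make. *Clps* was the highest of the others (3.64, adjusted p = 0.0029). *Reg3b* had a mean of 132 ± 66.5 CPM in duodenal and 5760 ± 1786 CPM in ileal positive cells, and in negative cells 221 ± 171 and 1351 ± 881 CPM.

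Goblet markers were higher in positive cells together with the members, enterocyte markers were so for all 7 in jejunum and ileum and for fewer in duodenum and colon, and no enteroendocrine, tuft or stem cell marker was higher in these sorts. Of 7 goblet markers (*Muc2*, *Tff3*, *Clca1*, *Fcgbp*, *Zg16*, *Spink4* and *Agr2*), 7 were higher in positive cells in each of the 4 regions, where between 8.88% and 18.3% of all genes were, none was at 0, and their summed level was 52930 to 60370 CPM in positive and 309 to 432 CPM in negative cells of the duodenum. Among positive cells it was 1904 to 4900 CPM in jejunum, 4377 to 10070 CPM in ileum and 4038 to 4950 CPM in colon, so that it was also highest where most members were. Of 7 enterocyte markers the sort called 2 higher in positive cells for the duodenum, 7 for both the jejunum and the ileum and 4 for the colon. Of all genes, 8.88%, 18.3%, 17.9% and 9.31% were higher in the duodenum, jejunum, ileum and colon. The summed level of the 7 enterocyte markers in positive cells was 1985 to 4088 CPM in the duodenum and 22730 to 28080 CPM in the jejunum. It was 5602 to 10860 CPM in the ileum and 392 to 600 CPM in the colon, where it was 168 to 182 CPM in negative cells. In duodenal positive cells 7 of 7 enterocyte markers were lower than in jejunal ones (14.8% of all genes), and against the ileum 4 were lower and 2 higher (12.5% and 13.1% of all genes). Enteroendocrine markers were lower in positive cells of the duodenum for 3 of 3, tuft markers for 2 of 3 and stem cell markers for 1 of 5, and in the jejunum and ileum for 3 of 3, 3 of 3 and 4 of 5, where 8.08%, 25.6% and 20.6% of all genes were lower in the duodenum, jejunum and ileum. In the colon 2 of 3, 0 of 3 and 3 of 5 were lower, where 3.8% of all genes were. The study's staining counted Paneth cells as a larger share of Venus-positive cells in the duodenum than in the jejunum or ileum. It also found lysozyme-stained cells without Venus in each of these regions. The part of Paneth cells and of these other cell types in the members' differences was not tested. Of 5 acinar genes of the pancreas, *Cela2a*, *Pnlip* and *Prss2* had no count in any library, and the list summed to 2.46 to 6.64 CPM in duodenal positive cells. In duodenal negative cells it summed to 2.38 to 5.62 CPM. The colon had more, at 19.6 to 45.7 CPM in positive and 48.5 to 85.9 CPM in negative cells. In each of these groups 4 of the 5 genes had no count, so that the sum is the level of 1 gene.

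Outside the members, genes with the most similar pattern were found by Pearson's r of log2 CPM over the 24 libraries, which share the same 8 groups, so that r is a description without a p. For *Lyz1* they were *Gm14851* (0.994), *Defa30* (0.992), *Defa29* (0.985), *Mptx2* (0.982) and *AY761184* (0.982). For *Mmp7* they were *Mptx2* (0.977), *Defa30* (0.973), *Gm15292* (0.967), *Defa26* (0.967) and *Gm14851* (0.966), and for *Itln1* *Defa26* (0.973), *Gm14851* (0.970), *AY761184* (0.964), *Mptx2* (0.964) and *Defa30* (0.963). Outside the members *Lyz2* was nearest to *Defa-ps1* (0.904), *Pla2g2a* (0.903), *Gm15292* (0.895), *Defa27* (0.878) and *Defa-ps6* (0.873). *Ang4* was nearest to *Pnliprp2* (0.916), *Spink4* (0.890), *Clps* (0.887), *Fcgbp* (0.879) and *Liph* (0.879), among which *Spink4* and *Fcgbp* are goblet markers. *Nupr1* was nearest to *Agr2* (0.910), *Kcnma1* (0.905), *Sytl2* (0.900), *Ramp1* (0.900) and *Copz2* (0.898), among which *Agr2* is a goblet marker. Among the members, r was 0.994 for *Defa21* and *Defa22*, 0.883 for *Defa21* and *Defa24*, 0.995 for *Lyz1* and *Defa24*, 0.989 for *Lyz1* and *Defa17*, 0.986 for *Mmp7* and *Defa17*, 0.975 for *Itln1* and *Lyz1*, 0.886 for *Lyz2* and *Mmp7*, and -0.034 for *Lyz1* and *Nupr1*.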

How the data were processed

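RNA from sorted cells was sequenced as 50-base single-end reads after stranded total-RNA library preparation. The authors deposited raw counts per gene without normalisation. The submitters' processing notes name CASAVA, STAR 2.5.1 and GRCm38, whereas the annotation release and strand setting are not given in the sources used here. The 4 lines of reads not assigned to a gene stayed out of library sizes. Gene names came from GENCODE M21, which held 53274 of 53465 genes.

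The counts were tested with edgeR 4.0.16 under R 4.3.3: filterByExpr (minimum count 10, minimum total 15), TMM factors, 1 coefficient per group over all 24 libraries and quasi-likelihood tests for 16 contrasts, with Benjamini-Hochberg adjustment over 15044 genes and a threshold of 0.05. The study's methods name DESeq2, which was run here as an alternative (1.42.0). The SE was the log2 fold change divided by the root of F. Tests were tested on simulated data. Alternatives were RLE factors, library size alone, no filter, a minimum of 10 counts in each library, protein-coding genes without mitochondrial ones, a covariate for the i5 index, all alpha-defensin counts summed, the compared libraries only, an adjusted p of 0.01, and each library left out in turn. Counts per unique window served only to describe ratios and levels and were not tested.

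The members and gene lists were chosen with earlier results of these data known. The rule names the 10 members in each comparison, those not called by their p, range or count. From other lists the text names up to 3 called genes with the largest changes per comparison and called genes of the opposite direction, and for likeness the 5 nearest genes outside the members to *Lyz1*, *Lyz2*, *Mmp7*, *Ang4*, *Itln1* and *Nupr1*. Floors cover counting error only, since the reads carried no molecular identifiers used in counting.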

Additional observations from a re-analysis of the deposited data

Results flagged for a closer look

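Several members had a sort difference that depended on the region by the interaction test of edgeR. Between duodenum and jejunum the difference of log2 fold changes was 2.63 for *Defa17*, 2.63 for *Defa21*, 2.93 for *Defa22*, 2.73 for *Defa24*, 2.97 for *Mmp7* and 3.60 for *Nupr1*, and between duodenum and ileum it was 3.16 for *Nupr1*. Between small intestine and colon it was 4.26 for *Lyz1*, 3.90 for *Defa21*, 4.30 for *Defa24*, 2.80 for *Mmp7*, 5.04 for *Ang4* and 4.66 for *Itln1*. Several of these calls were lost when a single library was left out, as given above. In counts outside the comparisons, reads that mapped to several places made up a mean of 30.02% of all reads in positive libraries of the duodenum, where every library lay above the negative ones.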

How the results depend on the processing

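No paired analysis was possible because the labels name no mouse and give no replicate numbers. Of 3267 repeats of single-gene values, 3096 kept their direction and side of the threshold, 77 lost a call, 87 gained one and 7 turned direction, the last when 1 library was left out. Asking for at least 10 counts in every library left 4 members to test, of which 4 were called between sorts in the duodenum, jejunum and ileum, 0 in the colon, 3 for the interaction of duodenum and jejunum, 0 for that of duodenum and ileum, 4 in positive cells of duodenum against jejunum, against ileum and of small intestine against colon, 0 in negative cells of duodenum against jejunum or ileum and 4 of small intestine against colon. Without a filter, 2 were called between sorts in the colon, 10 and 9 for the interactions of duodenum with jejunum and ileum, 1 in positive cells of jejunum against ileum and 4 in negative cells of duodenum against ileum. Those interactions gave 3 and 5 with the compared libraries only and 1 and 0 at an adjusted p of 0.01, and the second gave 6 with library size alone. The interaction of small intestine and colon gave 4 to 9 under alternatives other than leaving out a library, against 6 in the main fit. The cause was not tested, other than that fewer or more genes and samples entered.

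With each library left out, calls ranged from 10 to 10 between sorts in the duodenum, 8 to 10 in the jejunum, 9 to 10 in the ileum and 1 to 2 in the colon. The interactions ranged from 2 to 9 (duodenum, jejunum), 0 to 4 (duodenum, ileum) and 2 to 6 (small intestine, colon), the last falling to 2 without the second colonic negative library, which also brought 2 sort calls in the colon. The first fell to 2 or 3 without duodenal negative library 1 or 3, duodenal positive 2, jejunal positive 1 or 2, or jejunal negative 1 or 3. Positive cells gave 7 to 9 (duodenum against jejunum), 7 to 9 (against ileum), 0 to 2 (jejunum against ileum, 2 without the third jejunal positive library) and 9 to 10 (small intestine against colon), and negative cells 2, 2 to 3, 0 and 8 to 9.

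Direction turned for the sort change in the colon of *Ang4* (0.19 and 0.38 without positive library 1 or 3, range -1.44 to 2.77, the highest without negative library 2) and *Itln1* (-0.065 without negative library 3, range to 1.69). It also turned for *Nupr1* in the interaction of small intestine and colon (-0.12, range to 0.88), *Defa22* in positive cells of duodenum against jejunum (-1.83 to 0.13), and *Ang4* in negative cells of small intestine against colon (-3.05 to 0.31). Folds against a colonic group at the floor (*Lyz2*, *Defa17*, *Defa22*) were not followed. Depth limits colonic *Lyz2*, *Defa17*, *Defa21* and *Defa22*.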

Other observations

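Factors of the secretory lineage followed the members in the duodenum. Of 11 listed, with a median log2 fold change of 1.66, the duodenal sort called 9 higher in positive cells (8.88% of all genes were), led by *Atoh1* (6.0, adjusted p = 1.67e-08), *Spdef* (5.34, adjusted p = 1.55e-08) and *Gfi1* (5.33, adjusted p = 0.00011), and *Nr5a2* was lower (-1.67, adjusted p = 0.00040). In the jejunum 3 were higher and 3 lower, near the 18.3% and 25.6% of all genes, and in the ileum 4 and 2, where 17.9% and 20.6% of all genes were. *Sox9*, a factor that Paneth and stem cells share, was lower in the jejunum (-2.89, adjusted p = 4.18e-06). Of 7 niche ligands, 6 were tested, with a median of 2.05, and the same comparison of the duodenum called 3 higher in positive cells (8.88% of all genes were), namely the Notch ligands *Dll4* (3.36, adjusted p = 9.12e-08) and *Dll1* (2.05, adjusted p = 0.0012) and the growth factor *Tgfa* (2.04, adjusted p = 5.71e-05). The jejunal, ileal and colonic sorts called 3, 2 and 1 of the 6 higher, where 18.3%, 17.9% and 9.31% of all genes were. Of 12 granule and zinc genes, whose median log2 fold change in the duodenal sort was -0.23, that sort called 3 higher, against 8.88% of all genes: *Rab27a* (4.70, adjusted p = 2.01e-08), *Cd24a* (1.29, adjusted p = 0.036) and the zinc transporter *Slc30a2* (1.22, adjusted p = 0.042). The jejunal and the ileal sort each called 4 of these 12 higher and 3 lower. Of all genes, 18.3% and 17.9% were higher and 25.6% and 20.6% lower in these regions. In the colon 1 was higher and 2 were lower, where 9.31% and 3.8% of all genes were.

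Among alpha-defensins that were not members, *Defa34* and *Defa35*, singled out after their values were seen, had the highest r with *Defa22* (0.967 and 0.929 over the 24 libraries). In positive cells of duodenum against ileum their changes were -0.77 (adjusted p = 0.40) and -1.88 (adjusted p = 0.12), which did not pass the threshold.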
